A study of Homo sapiens with 6 samples.

Results

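The genes described here encode the subunits of the proteasome, its activators and inhibitor, and the factors that help to assemble it. They were taken by symbol, as every row named PSMA, PSMB, PSMC, PSMD, PSME, PSMF or PSMG followed by digits, without PSMB8 and PSMB9. This gave 44 genes of the 27887 rows in the table, and all 44 had a mean of at least 1 FPKM (fragments scaled by transcript length and library size) and were tested, among 13409 rows tested in all. The study used KYSE450, an established line of human esophageal squamous cell carcinoma, in 2 groups of 3 RNA-seq libraries. The shHMGB2 cells were infected with a virus carrying a short hairpin RNA against HMGB2 and are labelled as an HMGB2 knockdown. The mock cells received a mock virus infection and are labelled WT. The labels give neither the hairpin sequence nor the number of hairpins. They also leave unsaid whether the mock virus carried a hairpin and whether replicates were separate cultures, so p-values here reflect library-to-library spread, which may be only technical.

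The proteasome is the protease that degrades proteins tagged with ubiquitin in the cytosol and nucleus. Its 20S core is a barrel of stacked rings, with alpha subunits (PSMA genes) forming the gated outer rings and beta subunits (PSMB genes) forming the inner rings that hold the active sites. The 19S regulator binds the barrel's ends, where ATPases (PSMC genes) unfold substrates and non-ATPase subunits (PSMD genes) receive ubiquitin chains and remove them. Under interferon, cells replace the 3 standard catalytic subunits PSMB5, PSMB6 and PSMB7 by PSMB8, PSMB9 and PSMB10, and make more of the PA28 activator of PSME1 and PSME2, which favours the production of peptides for MHC class I.

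The knockdown was visible in the RNA. HMGB2, a chromatin protein that bends DNA, had 22.1, 24.5 and 27.8 FPKM in the shHMGB2 libraries, against 115.8, 111.4 and 108.6 FPKM in the mock libraries (log2 fold change -2.14, SE 0.084, limma adjusted p = 0.000113). Summed FPKM ranged from 740684 to 829437 per library, with mock replicate 1 the highest, and size factors read from the deposited values spanned a 1.88-fold range. All 7 squamous epithelial markers were listed, and their summed level was 5442 to 6112 FPKM in shHMGB2 and 6167 to 6272 FPKM in mock. KRT5 and KRT6A made up most of this sum, with means of 3440 and 1740 FPKM over the 6 libraries. The markers went both ways: KRT6A and KRT14 were lower in every shHMGB2 library than in any mock library, and SOX2 and CDH1 were higher. KRT5, TP63 and EPCAM overlapped between the groups. Of 9 markers of fibroblasts, leukocytes and endothelium, 8 were listed, summing to 8.63 to 9.17 FPKM in shHMGB2 and 10.4 to 11.2 FPKM in mock, with COL1A2, DCN, PTPRC and PECAM1 at or near 0. Most of this sum came from CD68 and LUM, which went opposite ways. CD68 had 4.23 to 4.65 FPKM in shHMGB2 and 6.86 to 7.59 FPKM in mock. LUM had 3.32 to 3.71 FPKM in shHMGB2 and 2.11 to 2.93 FPKM in mock. The part of these marker differences in the results was not tested.

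Most proteasome genes differed little between the groups, and PSMB2 was the exception. In limma on log2(FPKM + 1), adjusted over all genes tested, 1 of the 44 genes was lower in shHMGB2 (PSMB2) and 1 was higher (PSME2), at an adjusted p under 0.05. Over all genes tested, 3.45% were called lower and 3.30% higher, 6.75% in either direction, so the count of members called was no larger than this background. The median log2 fold change was -0.07 over the 44 genes and 0.04 over all genes tested. A total of 31 members had a negative and 13 a positive log2 fold change. Over all 13409 genes tested, 5762 were negative and 7647 positive. Leaving out PSMB2, the largest absolute log2 fold change was 0.28 and the median absolute one 0.09. Under median-of-ratios scaling the median was -0.11 over the members and 0.00 over all genes tested. Under quantile normalization it was 0.00 over the members and 0.01 over all genes tested, with 21 members negative and 23 positive. The small downward lean of the list against all genes tested thus stayed under median-of-ratios scaling and was absent under quantile normalization. In bulk RNA, fewer cells expressing a gene and less of its RNA per cell cannot be told apart.

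**Figure D1:**
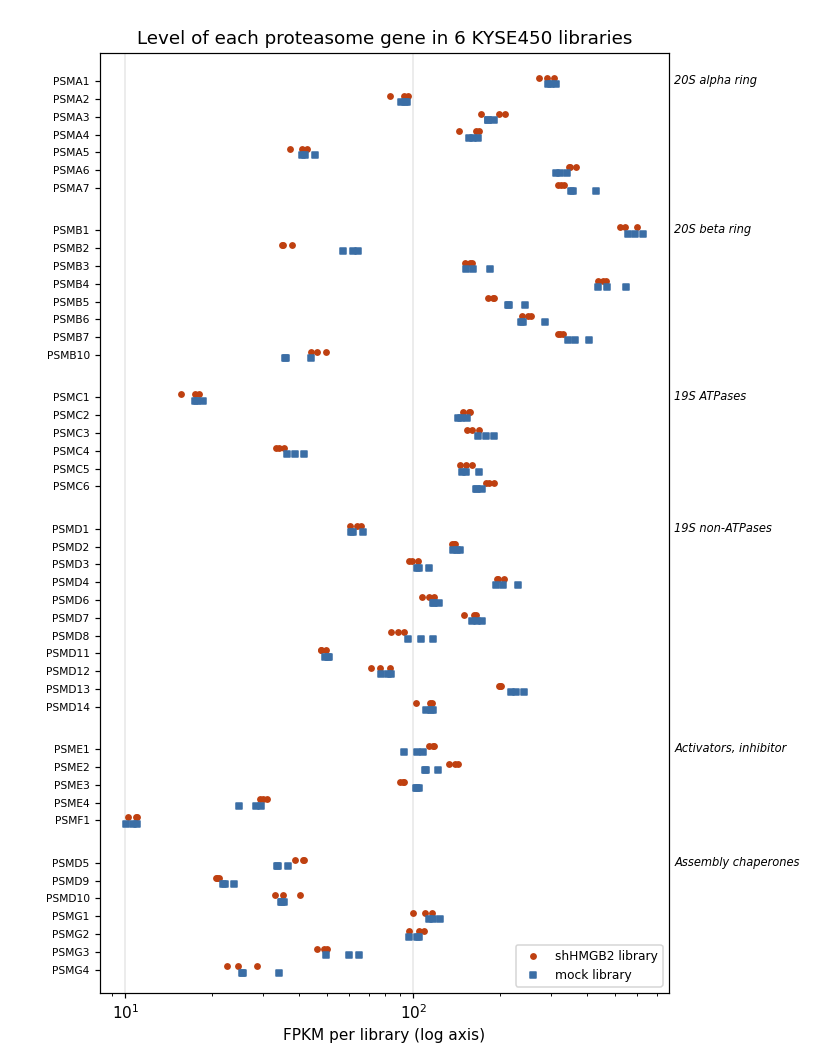
FPKM of each of the 44 proteasome genes in the 3 shHMGB2 libraries (circles) and the 3 mock libraries (squares), on a log axis and grouped by role. The shHMGB2 and mock libraries lie close together for most genes, while all 3 shHMGB2 libraries of PSMB2 (35.1 to 37.9 FPKM) lie below all 3 mock libraries (57.2 to 64.1 FPKM).

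Levels within the complex spanned a 54.0-fold range. PSMB1, a beta subunit, had the highest mean over the 6 libraries at 572.4 FPKM, and PSMF1, the inhibitor PI31, the lowest at 10.6 FPKM. By role, the median level was 188.8 FPKM for the 7 alpha subunits and 228.3 FPKM for the 8 beta subunits. It was 152.5 FPKM for the 6 ATPases, 112.7 FPKM for the 11 non-ATPase subunits, 97.4 FPKM for the activators and inhibitor and 37.7 FPKM for the 7 assembly chaperones. These levels are per transcript length, and 4 genes have a further copy row that may share their reads. Subunits of one ring are built into the particle in equal number, but their RNA was not at equal level: within the beta ring PSMB1 stood at 572.4 FPKM and PSMB2 at 48.6 FPKM.

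The alpha ring, which gates the barrel, had no member past the threshold. Its summed level was 1383, 1489 and 1490 FPKM in shHMGB2 and 1565, 1469 and 1439.6 FPKM in mock, and these ranges overlapped. PSMA7 had the lowest log2 fold change of the ring, at -0.22 (SE 0.084, limma adjusted p = 0.146). It had 326.0, 334 and 319 FPKM in shHMGB2 and 431, 358 and 354 FPKM in mock, where replicate 1 stood above the other mock libraries. PSMA6 had the highest, at 0.12 (SE 0.058, limma adjusted p = 0.212), with 347, 349 and 366 FPKM in shHMGB2 and 340.5, 323 and 313 FPKM in mock. PSMA5 had the lowest level in the ring, with 40.4 ± 2.75 FPKM in shHMGB2 and 42.9 ± 2.35 FPKM in mock (SD, n = 3 each). Levels of the other 4 alpha subunits overlapped between the groups.

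In the beta ring PSMB2 fell to 59.3% of its mock level. PSMB2 encodes beta4, a structural subunit without an active site, and lies on chromosome 1 at 35599541 to 35641526 (RefSeq, GRCh38.p14). It had 35.1, 35.3 and 37.9 FPKM in the shHMGB2 libraries, against 64.1, 61.6 and 57.2 FPKM in the mock libraries. The groups were far apart, with a gap wider than the spread within either. Means were 36.1 ± 1.57 FPKM in shHMGB2 and 61.0 ± 3.50 FPKM in mock (SD, n = 3 each), giving -0.74 on the log2 scale (SE 0.064, limma adjusted p = 0.00154). It passed in all 17 alternative fits, with log2 fold changes from -0.78 to -0.70 and adjusted p from 0.000104 to 0.0153 in limma, and the authors' deposited table gives -0.83 with an adjusted p of 1.95e-22. The neighbouring genes NCDN and C1orf216, the nearest on either side among those tested, had log2 fold changes of 0.07 and 0.17 and did not pass (limma adjusted p = 0.516 and 0.135). KIAA0319L, the next gene beyond NCDN, was higher, by 0.55 on the log2 scale (SE 0.091, limma adjusted p = 0.0166).

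None of the other structural beta subunits passed. PSMB1, the most abundant member, had 521.5, 545 and 598 FPKM in shHMGB2 and 627, 587 and 556 FPKM in mock, with overlapping groups (log2 fold change -0.09, limma adjusted p = 0.473, and 0.02 under quantile normalization). PSMB3 and PSMB4 also overlapped, with log2 fold changes of -0.08 and -0.09. Within each library, the ratio of PSMB2 to the summed FPKM of the 6 other standard beta subunits was 1.86%, 1.87% and 1.90% in shHMGB2 and 2.79%, 3.03% and 2.95% in mock. This ratio needs no scaling between libraries, and it was chosen after the values were seen, so it carries no test.

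Of the standard catalytic subunits, PSMB5 and PSMB7 were lower in every shHMGB2 library than in any mock library, without passing the threshold. Over all genes tested, 14.0% were lower in this way. PSMB5, the chymotrypsin-like subunit and the main target of bortezomib, had 190.6, 189 and 181 FPKM in shHMGB2 and 245, 214 and 213 FPKM in mock (log2 fold change -0.26, SE 0.069, limma adjusted p = 0.0678). PSMB7, the trypsin-like subunit, had 317, 323 and 332 FPKM in shHMGB2 and 408, 365 and 346 FPKM in mock (log2 fold change -0.20, SE 0.072, limma adjusted p = 0.131). PSMB6, the caspase-like subunit, overlapped between the groups, at 248 ± 8.80 FPKM in shHMGB2 and 254 ± 27.6 FPKM in mock (SD, n = 3 each). In the authors' deposited table, PSMB5 and PSMB7 were lower with adjusted p of 0.00192 and 0.00959, and PSMB6 had an adjusted p of 0.388.

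The immunoproteasome subunit PSMB10 had a positive log2 fold change that did not pass. PSMB10, which takes the place of PSMB7, lies on chromosome 16 at 67934506 to 67936850. It had 49.8, 44.1 and 46.4 FPKM in shHMGB2 and 44.2, 36.0 and 35.8 FPKM in mock, where replicate 1 was the highest and reached into the range of the shHMGB2 libraries (log2 fold change 0.27, SE 0.093, limma adjusted p = 0.114). Of the 6 fits with 1 library left out, it passed only in that without mock replicate 1 (log2 fold change 0.37, limma adjusted p = 0.0303). The highest limma adjusted p among the 6 was 0.267. The authors' deposited table gives PSMB10 a log2 fold change of 0.17 with an adjusted p of 0.361. The ratio of PSMB10 to PSMB7 in the same library was 15.7%, 13.6% and 14.0% in shHMGB2 and 10.8%, 9.88% and 10.4% in mock. PSMB7 had a negative log2 fold change, so this ratio differed more than PSMB10 itself. The ratio was chosen after the values were seen and carries no test. Of the other inducible subunits, PSMB8 has 8 rows, 7 of them with the same values, and reads may be split among them. The row without a copy number had 0.53 to 0.65 FPKM in shHMGB2 and 0.56 to 0.68 FPKM in mock, and the 8 rows summed to 4.21 to 5.12 FPKM in shHMGB2 and 4.42 to 5.44 FPKM in mock. The copy row PSMB9-3 rose, with 73.9, 68.9 and 68.6 FPKM in shHMGB2 and 52.3, 46.1 and 44.2 FPKM in mock (log2 fold change 0.56, SE 0.075, limma adjusted p = 0.00666). Copy rows PSMB9-2, PSMB9-6 and PSMB9-8 stood at 0.0 to 0.06 FPKM over the 6 libraries and were not tested.

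Both subunits of PA28, the ring that opens the core without ATP or ubiquitin, were higher in every shHMGB2 library than in any mock library. Over all genes tested, 21.6% were higher in this way. PSME2, or PA28 beta, had 139.7, 133 and 143 FPKM in shHMGB2 and 122, 109 and 111 FPKM in mock. Means were 138.5 ± 5.32 FPKM in shHMGB2 and 114 ± 7.07 FPKM in mock (SD, n = 3 each), and it rose by 0.28 on the log2 scale (SE 0.064, limma adjusted p = 0.0461). PSME1, or PA28 alpha, had 118, 113 and 117 FPKM in shHMGB2 and 108, 103 and 92.6 FPKM in mock, without passing (log2 fold change 0.20, SE 0.068, limma adjusted p = 0.116). The 2 genes lie close together on chromosome 14, PSME1 at 24136194 to 24138962 and PSME2 at 24143365 to 24146610. The call of PSME2 sat at the edge of the threshold. It ended with no filter on low values (limma adjusted p = 0.0943), with no mean-variance trend (0.0642), under upper-quartile and median-of-ratios scaling (0.0547 and 0.0819), without mock replicate 2 or 3 (0.149 and 0.082) and without shHMGB2 replicate 1, 2 or 3 (0.13, 0.107 and 0.146), and the authors' deposited table gives a log2 fold change of 0.18 with an adjusted p of 0.186.

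PSME3, or PA28 gamma, forms a ring of its own in the nucleus and is not a subunit of the interferon-inducible activator. Its log2 fold change had the opposite sign to those of PSME1 and PSME2, with 89.8, 92.8 and 92.2 FPKM in shHMGB2 and 104, 102 and 103 FPKM in mock. The libraries of each group were tight and did not overlap, but the difference did not pass (log2 fold change -0.17, SE 0.049, limma adjusted p = 0.078). Relative to PSME3 in the same library, PSME2 stood at 156%, 143% and 155% in shHMGB2 and at 117%, 108% and 107% in mock. PSME1 stood at 131%, 122% and 127% of PSME3 in shHMGB2 and at 103%, 101% and 89.6% in mock. With PSME3 going the other way, these ratios differed more than PSME1 and PSME2 themselves. They were chosen after the values were seen and carry no test. PSME4, the activator PA200, had 30.1 ± 0.918 FPKM in shHMGB2 and 27.6 ± 2.48 FPKM in mock, and PSMF1 had 10.7 ± 0.418 FPKM in shHMGB2 and 10.6 ± 0.442 FPKM in mock (SD, n = 3 each), neither passing. The 5 activator and inhibitor genes summed to 387, 380 and 393 FPKM in shHMGB2 and 370, 353 and 346 FPKM in mock, without overlap. This difference was not tested.

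**Figure D2:**
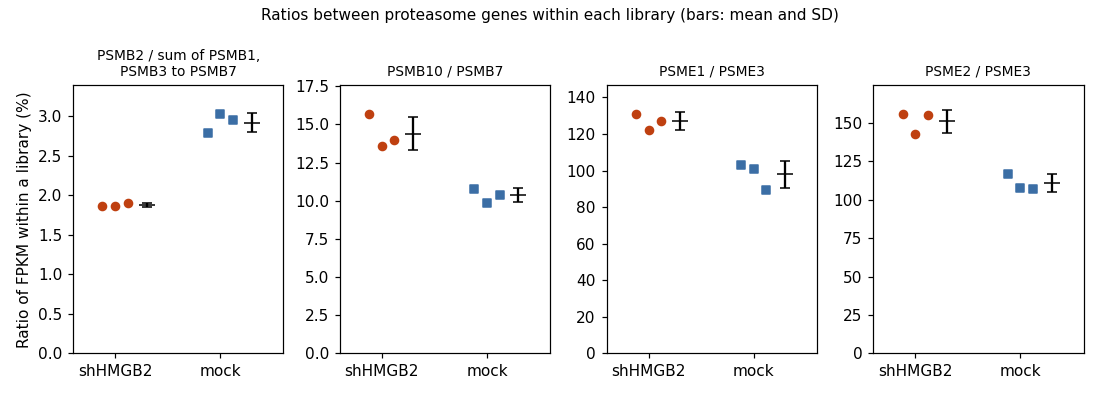
FPKM ratios between proteasome genes within each library, in percent, for 3 shHMGB2 libraries (circles) and 3 mock libraries (squares), with the mean and SD of each group beside them; axes start at 0. PSMB2 relative to the other standard beta subunits is 1.88% in shHMGB2 and 2.92% in mock on average, while PSMB10 relative to PSMB7 is 14.4% in shHMGB2 and 10.4% in mock. The ratios were chosen after the values were seen and carry no test.

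Because PSMB10, PSME1 and PSME2 had log2 fold changes of one sign, the RefSeq promoter windows of the members were read for the core letters of the interferon-stimulated response element, GAAA followed after any 2 bases by another GAAA, on both strands. Each window holds 250 bases before and 50 bases after an annotated start on GRCh38.p14, and some genes have several windows. Of the 44 members, 38 matched, with 46 windows. The pattern was found in windows of 6 members, in 6 of the 46 windows (13.0%), against 3.57% of all 35116 windows. This difference was not tested, and PSMB10, PSME1 and PSME2, whose signs prompted the search, are among the 6. The same 10 letters recur next to the start of PSMB10, PSME1 and PSME2. All 6 stretches are printed on the strand of the gene, with the match in capitals:
PSMB10: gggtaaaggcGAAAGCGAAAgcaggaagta
PSME2: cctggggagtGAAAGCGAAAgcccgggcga
PSME1: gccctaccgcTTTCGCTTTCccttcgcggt
PSMG4: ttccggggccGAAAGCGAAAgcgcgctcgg
PSMB4: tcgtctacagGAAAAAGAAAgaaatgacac
PSMA4: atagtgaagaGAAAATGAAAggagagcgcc

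The PSMB10 stretch lies on the minus strand of chromosome 16 at 67936852 to 67936881, and its match begins at -21 from the start. In PSME2 (minus strand of chromosome 14, 24146619 to 24146648) the match begins at -28, and in PSME1 (plus strand, 24136189 to 24136218) it begins at 6 after the start and reads on the opposite strand. PSMG4 (chromosome 6, plus strand, 3258904 to 3258933) carries the same letters at -33, and its level was 28.6, 22.6 and 24.5 FPKM in shHMGB2 and 34.1, 25.6 and 25.4 FPKM in mock, with overlapping groups (log2 fold change -0.16, limma adjusted p = 0.469). In PSMB4 (chromosome 1, plus strand, 151399495 to 151399524) and PSMA4 (chromosome 15, plus strand, 78540155 to 78540184), the match begins at -68 and -240 and has other middle letters, and the log2 fold changes were -0.09 and -0.02. Members with the letters thus had log2 fold changes of both signs. Those of PSMG4, PSMB4 and PSMA4 had standard errors of 0.13, 0.089 and 0.074, so their negative signs are not settled. The gamma-activated pattern TTCNNNGAA was in windows of 6 members, 13.0% of the members' windows against 7.66% of all windows, and this was not tested. It was in none of PSMB10, PSME1 and PSME2. The antioxidant response pattern TGACNNNGC, through which NFE2L1 acts on proteasome genes, was in windows of 14 members. This was 30.4% of the members' windows against 13.3% of all windows, a difference that was not tested. The window of PSMB2 held none of the 3 patterns. A match of letters describes the sequence and does not show a bound site.

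Among the ATPases of the 19S base none passed the threshold. Their summed level was 678, 704 and 728 FPKM in shHMGB2 and 747, 702 and 677 FPKM in mock. PSMC4 had the lowest log2 fold change, -0.18 (SE 0.067, limma adjusted p = 0.144), with 35.6, 33.3 and 34.2 FPKM in shHMGB2 and 41.9, 38.9 and 36.3 FPKM in mock. PSMC6, the most abundant ATPase, had the highest, 0.13 (SE 0.053, limma adjusted p = 0.173), with 178, 183 and 191 FPKM in shHMGB2 and 173, 167 and 166 FPKM in mock. In both genes the groups did not overlap. The authors' deposited table puts PSMC6 at a log2 fold change of -0.05, so its direction differed between the FPKM values and that table, and under an adjusted p of 0.05 that table calls PSMC3 lower, at -0.23 with an adjusted p of 0.0429. PSMC1 had the lowest level, at 17.0 ± 1.25 FPKM in shHMGB2 and 17.9 ± 0.580 FPKM in mock (SD, n = 3 each).

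Of the 11 non-ATPase subunits, 10 had a negative log2 fold change, none passed, and the largest differences were in lid subunits. Of the 13409 genes tested, 5762 had a negative one. PSMD8, a lid subunit, had 88.7, 83.9 and 93.0 FPKM in shHMGB2 and 117, 106 and 95.9 FPKM in mock (log2 fold change -0.26, SE 0.083, limma adjusted p = 0.101). PSMD13, the most abundant of the class, had 198.7, 200.4 and 201 FPKM in shHMGB2 and 242, 228 and 218 FPKM in mock (log2 fold change -0.20, SE 0.057, limma adjusted p = 0.0834). Neither overlapped between the groups, and the authors' deposited table calls both lower, with adjusted p of 0.0064 for PSMD8 and 0.00373 for PSMD13. PSMD14, the deubiquitinase that cuts chains from substrates, had 111 ± 7.51 FPKM in shHMGB2 and 114.5 ± 3.38 FPKM in mock (SD, n = 3 each). PSMD4, a ubiquitin receptor, and PSMD2 and PSMD1, the large scaffold subunits of the base, had log2 fold changes of -0.07, -0.03 and 0.01, and that of PSMD1 was -0.03 under median-of-ratios scaling. PSMD11, the least abundant of the class, had 48.5 ± 1.17 FPKM in shHMGB2 and 50.2 ± 0.864 FPKM in mock (SD, n = 3 each). The class summed to 1265, 1298 and 1328.5 FPKM in shHMGB2 and 1447, 1372 and 1347 FPKM in mock, without overlap. Sums of the beta ring and of the assembly chaperones overlapped between the groups. No sum was tested.

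None of the assembly chaperones passed, and 3 had positive and 4 negative log2 fold changes. PSMD5, which holds ATPases apart until the base is complete, had 39.0, 41.4 and 41.7 FPKM in shHMGB2 and 33.8, 33.6 and 36.6 FPKM in mock, the highest log2 fold change of the class (0.23, SE 0.060, limma adjusted p = 0.0675). Its fellow base chaperones PSMD9 and PSMD10 (gankyrin) had log2 fold changes of -0.11 and 0.04. PSMD9 had the lowest level of the class, 20.9 ± 0.257 FPKM in shHMGB2 and 22.65 ± 1.05 FPKM in mock (SD, n = 3 each). PSMG1 and PSMG2, which work as a pair to order the alpha ring, had log2 fold changes of -0.12 and 0.03. PSMG3, which pairs with PSMG4, had 46.5, 48.9 and 50.2 FPKM in shHMGB2 and 64.9, 59.9 and 49.9 FPKM in mock (log2 fold change -0.25, SE 0.097, limma adjusted p = 0.146). Mock replicate 3 of PSMG3 lay among the shHMGB2 libraries. Of the 6 fits with 1 library left out, PSMG3 passed only in that without mock replicate 3 (log2 fold change -0.36, limma adjusted p = 0.0402). The highest limma adjusted p among the 6 was 0.306.

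**Figure D3:**
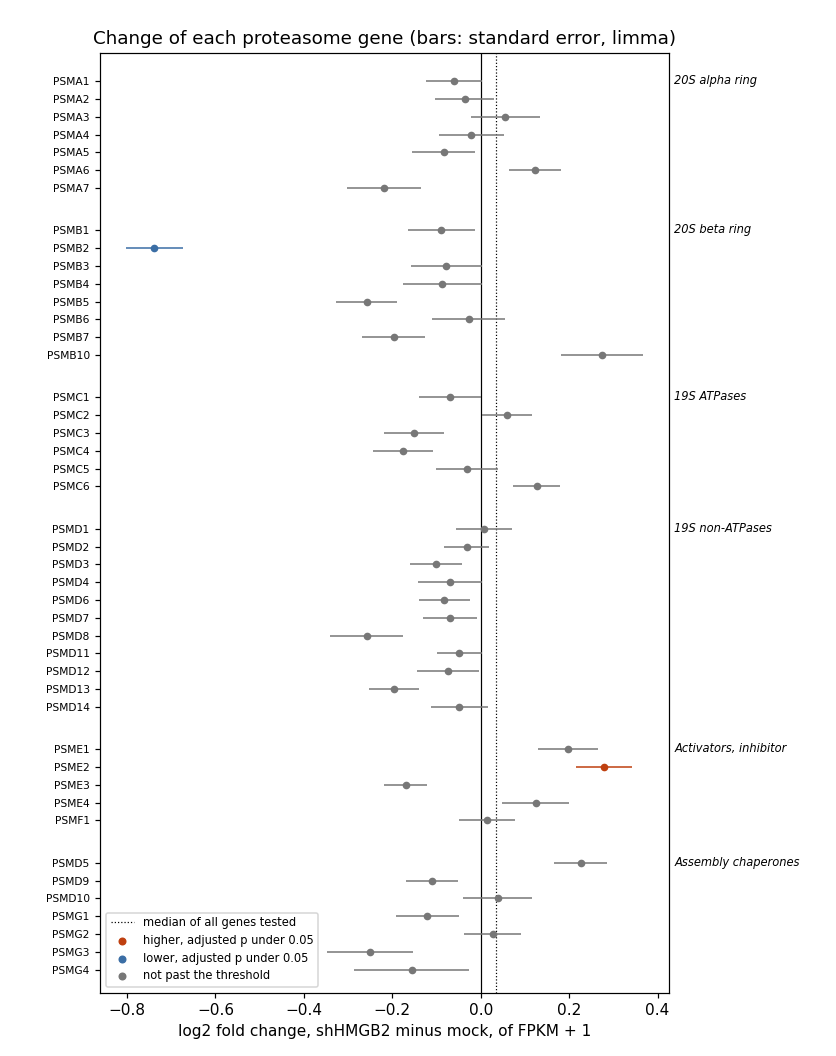
Log2 fold change of FPKM + 1, shHMGB2 minus mock, for each of the 44 proteasome genes with its standard error from limma, grouped by role. The solid line is 0 and the dotted line the median of all genes tested, 0.04; PSMB2 at -0.74 and PSME2 at 0.28 are past the threshold, and the other genes lie between -0.26 and 0.27.

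Counted by overlap alone, 9 of the 44 members had all 3 shHMGB2 libraries below all 3 mock libraries, and 5 had all 3 above. Over all genes tested, 14.0% lay below in this way and 21.6% above, so the members held a larger share below (20.5%) and a smaller one above (11.4%). The 9 below were PSMA7, PSMB2, PSMB5, PSMB7, PSMC4, PSMD8, PSMD9, PSMD13 and PSME3, and the 5 above were PSMA6, PSMC6, PSME1, PSME2 and PSMD5.

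The authors' deposited table gave more calls in the downward direction. At an adjusted p under 0.05 it puts 9 of the 44 members lower (20.5%) and 0 higher, while over its 13585 rows with an adjusted p, 9.23% were lower and 6.13% higher. At an unadjusted p under 0.05 that table has 14 members lower and 1 higher (PSMD5), where it has 15.7% of all genes tested lower and 11.7% higher. In limma 9 members were lower and 5 higher at an unadjusted p under 0.05, against 11.1% of all genes tested lower and 16.8% higher, 27.9% in either direction. The 9 in the authors' deposited table were PSMA7, PSMB2, PSMB5, PSMB7, PSMC3, PSMD8, PSMD13, PSME3 and PSMG3. The authors' deposited table also sits lower as a whole: the limma value minus its log2 fold change had a median of 0.08 over the members and 0.06 over all genes tested. The sign was the same in 37 members and opposite in 7, among them PSMC6. PSMB2 was the member with the lowest value in both.

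**Figure D4:**
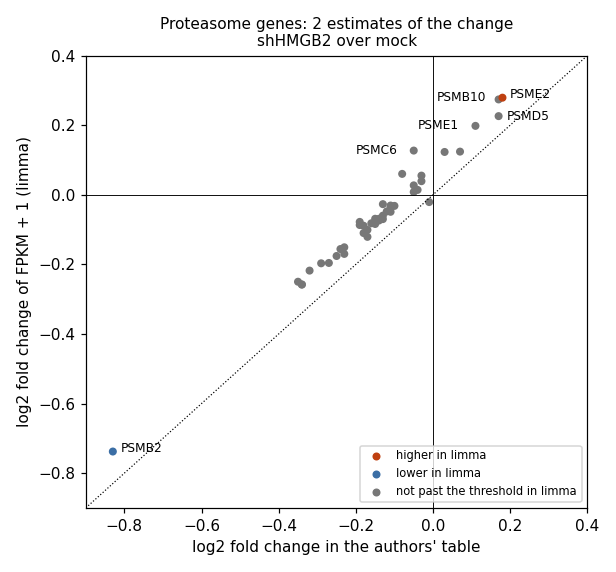
Log2 fold change of FPKM + 1 from limma against the log2 fold change in the authors' deposited table, 1 point per proteasome gene, shHMGB2 over mock; the dotted line marks equal values. All points but that of PSMA4 lie above the line, with a median difference of 0.08, and PSMB2 stands alone at -0.74 in limma and -0.83 in the authors' table.

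Other genes of the pathway were read as a list of factors that build, supply or control the proteasome. Of 28 measured, 1 was lower, 0 were higher and 27 did not pass in limma, where 3.45% of all genes tested were lower and 3.30% higher. At an unadjusted p under 0.05 limma had 5 of the 28 lower and 2 higher, against 11.1% and 16.8% of all genes tested. The authors' deposited table puts 7 of them lower (25.0%) and 0 higher at an adjusted p under 0.05, against 9.23% lower and 6.13% higher over its rows with an adjusted p. The gene that fell was AKIRIN2, which brings proteasomes into the nucleus. It had 30.4, 30.1 and 30.7 FPKM in shHMGB2 and 38.5, 37.7 and 36.6 FPKM in mock, with no overlap (log2 fold change -0.30, SE 0.051, limma adjusted p = 0.0184). Its call ended without mock replicate 2 (limma adjusted p = 0.085) and without shHMGB2 replicate 1, 2 or 3 (0.0661, 0.0891 and 0.0727). NFE2L1, the transcription factor that raises proteasome genes when activity is short, overlapped widely, with 85.7, 73.6 and 87.9 FPKM in shHMGB2 and 64.7, 89.7 and 71.4 FPKM in mock (limma adjusted p = 0.499). Over these 28 genes the median log2 fold change stood at -0.02, against 0.04 over all genes tested.

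Some members have a second row in the table, named as a numbered copy, and reads could be split between such rows. This touched PSMB3, PSMC4, PSME1 and PSME2. The 2 rows of PSME1 held the same values in all 6 libraries, so its level would be 232 FPKM in shHMGB2 and 202 FPKM in mock if the rows are added. The second row of PSME2 did not pass by itself (log2 fold change 0.25, limma adjusted p = 0.0698). With copies added, PSME2 stood at 279 FPKM in shHMGB2 and 232 FPKM in mock (log2 fold change 0.26, limma adjusted p = 0.0477), and PSMC4 at 70.1 FPKM in shHMGB2 and 80.3 FPKM in mock (log2 fold change -0.19, limma adjusted p = 0.102). The direction of all 4 genes was the same with and without their copies.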

How the data were processed

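RNA-seq libraries were 3 from shHMGB2 and 3 from mock KYSE450 cells. The authors deposited FPKM per library with 2 decimals, a normalized signal per group, a log2 fold change, a p-value and an adjusted p-value from a test not named in the sources used here. The submitters' processing notes name Bowtie2 2.2.5, RSEM 1.2.12 and hg38, with no role. Read counts are not in the table, so depth per library is known only as relative size factors, 0.703 to 1.32, read from the commonest step in group values of genes seen in 1 library. Rows with a mean of at least 1 FPKM were fitted as log2(FPKM + 1) in limma 3.58.1 (R 4.3.3) with group as the only term and a trended prior variance. 2-sided p-values were adjusted by Benjamini-Hochberg across the 13409 rows, and genes under 0.05 were called. This scale understates changes of low genes. The fit was tested on simulated data with known changes, all larger than that of any member but PSMB2. That run did not cover smaller changes. Named genes are HMGB2, PSMB10, PSME1, PSME2, members past the threshold, further members by p up to 12, the extremes of change and level in each class, and associated genes past the threshold; other genes named, and the ratios, were chosen after values were seen. Members and lists were chosen with earlier results of these data known. Gene positions and promoter windows are from RefSeq on GRCh38.p14. PSMA7, PSMB1, PSMB6, PSMB7, PSMD4 and PSMG3 had no promoter window matched. Alternatives covered pseudocount, filter, scaling, variance model, library weights, threshold, replicate block, each library left out and, added after seeing the data, summed copies.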

Additional observations from a re-analysis of the deposited data

How the results depend on the processing

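PSMB2 kept its direction and its call in every alternative fit run. The 905 genes called over the whole table became 412 with no filter, 4194 with library weights, 2034 at a threshold of 0.1, and 288 to 868 with 1 library left out. The 1 member called higher became 0 with no filter, with upper-quartile or median-of-ratios scaling and with no mean-variance trend, 4 with quantile normalization, 6 with library weights, 2 at a threshold of 0.1, and 0 to 2 with 1 library left out. The 1 member called lower became 2 with quantile normalization, 9 with library weights, 4 at a threshold of 0.1, and 1 to 2 with 1 library left out. Associated genes called higher, 0 in the reported fit, were 1 with quantile normalization and 3 with library weights, and those called lower, 1 in the reported fit, were 5 with library weights, 2 at a threshold of 0.1 and 0 to 1 with 1 library left out. Median-of-ratios scaling called 349 genes higher and 571 lower, against 442 and 463 in the reported fit. The sign turned in at least 1 alternative for 17 of the 44 members, all with a reported log2 fold change of at most 0.09 in size and none called in any alternative. Among those named by the rule, these were PSMD1 (-0.03 with median-of-ratios scaling, and -0.02 to 0.05 with 1 library left out, -0.0076 without mock replicate 2), PSMF1 (-0.02 with median-of-ratios scaling, -0.03 with quantile normalization, -0.0048 with library weights, and -0.02 to 0.04 with 1 library left out, -0.0037 without shHMGB2 replicate 1) and PSMB1 (0.02 with quantile normalization). The cause of these changes was not tested.

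Libraries of the 2 groups share replicate numbers, but same-numbered libraries did not deviate together (correlations of -0.012, -0.038 and -0.096), so the numbers were not taken to pair them. With a replicate block, 372 genes were called over the whole table, 0 members were higher (PSME2, adjusted p = 0.0876 in limma), 1 was lower (PSMB2, adjusted p = 0.0153 in limma) and 0 associated genes were lower (AKIRIN2, adjusted p = 0.0701 in limma). Differences near 0.1 on the log2 scale are close to the standard errors of 0.049 to 0.13 for these genes, so a gene that did not pass is not shown to be unchanged.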
